A study of Mus musculus with 3 samples.

Results

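Interferon-induced antiviral genes were compared between mouse liver RNA and mouse spleen RNA. The group held 10 genes, Isg15, Ifit1, Ifit2, Ifit3, Mx1, Mx2, Oas1a, Oasl2, Rsad2 and Usp18, chosen by gene symbol in the platform annotation, out of 10698 gene symbols in the table. They were read by 16 of the table's 16281 probes. All 16 probes had a value on all 3 arrays, so no gene of the group was lost to the filter on missing values.

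Each of the 3 arrays was a two-colour oligonucleotide array that carried liver RNA in the red dye (Cyanine-5) and spleen RNA in the green dye (Cyanine-3). Both were total RNAs bought from Clontech and amplified in a single round. The same catalogue products are named for every array, and no strain, sex, age, number of mice or treatment is given in the labels. All arrays are taken here to carry the same 2 RNAs, so the p-values below reflect array-to-array spread only, possibly technical, and say nothing of how mice vary. The dyes were never exchanged, so dye and tissue cannot be told apart.

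Interferons are secreted when cells sense foreign nucleic acids. They bind surface receptors, the JAK kinases then phosphorylate STAT proteins, and a complex of STAT proteins with IRF9 enters the nucleus and binds the interferon-stimulated response element (ISRE) in front of many genes. The products of the 10 genes act at different steps against viruses. ISG15 is a ubiquitin-like protein that is attached to other proteins, and USP18 removes it and also dampens the type I interferon receptor. IFIT proteins bind viral RNA, MX proteins are GTPases that trap viral components, OAS enzymes make oligoadenylates that activate the nuclease RNase L, and viperin (Rsad2) makes a chain-terminating nucleotide. Immune cells in the absence of infection already express many of these genes at a low level.

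All values are log2 ratios of liver over spleen, with ± for the SD of the 3 arrays (n = 3), so a negative value means a lower level in liver. The labels do not give the direction of the ratio, and this reading is the likely one. It rests on liver and spleen marker genes, whose medians lay on opposite sides of 0 on every array. The 4 measured hepatocyte markers had medians of 5.52, 5.18 and 5.32 on arrays 1, 2 and 3, and the 7 B-cell markers -1.93, -1.60 and -1.16. Each gene's ratio was tested against 0 with limma's moderated test over all 9803 genes, and a gene was called at an adjusted p under 0.05. Where a gene had several probes they were averaged on each array. In RNA from whole tissue, fewer cells of a type and less RNA per cell cannot be told apart.

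By means over probes, the antiviral genes were mostly lower in liver. Of the 10 genes, 6 were called lower in liver (Rsad2, Isg15, Oas1a, Ifit2, Oasl2 and Usp18), against 27.4% of all 9803 genes. In either direction 52.8% of all genes were called. By limma 0 were called higher in liver, with 0 also at an unadjusted p under 0.05, against 25.3% of all genes. The other 4, Ifit3, Mx1, Ifit1 and Mx2, did not pass the test. Among the 6 called genes, Isg15, Ifit2 and Oasl2 each had 1 probe past limma's test over single probes and 1 probe that was not. The 1 probe of Usp18 did not pass that test (adjusted p = 0.0527), and the gene's call was lost without any 1 of the arrays. By single probes, 6 of the 16 were called lower in liver, against 26.6% of all probes. The median log2 ratio of the 10 genes was -0.37, against 0.02 for all genes tested. By array the median was -0.47, -0.36 and -0.33, so the lean toward spleen was present on each array. Of the 10 genes, 8 lay below 0 on all 3 arrays, against 36.4% of all genes, and Ifit1 and Mx2 did not.

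**Figure D1:**
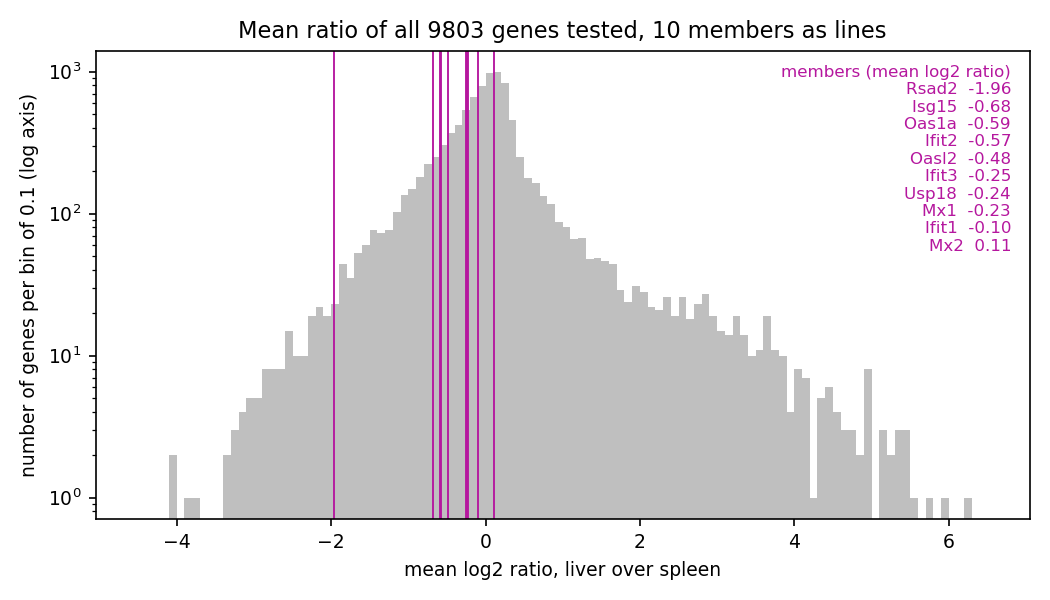
Mean log2 ratio of liver over spleen for all 9803 genes tested (grey bars, number of genes per bin on a log axis), with the 10 interferon-induced antiviral genes as vertical lines and their means listed at the right. Rsad2 at -1.96 stands in the lower tail, and the other 9 genes lie between -0.68 and 0.11, inside the bulk of the distribution.

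Most differences within the group were small. By means over probes, Rsad2 was the only one of the 10 genes at least 2-fold lower in liver, against 8.40% of all genes. By single probes, Isg15 probe 164 (2.87-fold) and Ifit2 probe 14057 (2.01-fold) passed that size too. The distance between Rsad2 and the next gene mean in the order, that of Isg15, was 1.28 ± 0.09 on the log2 scale, though Isg15 probe 164 alone, at -1.52, was nearer to Rsad2. Between all other neighbours in the order, which ran Isg15, Oas1a, Ifit2, Oasl2, Ifit3, Usp18, Mx1, Ifit1 and Mx2, the gap was smaller than its SD over the arrays. For example, Oas1a and Ifit2 were 0.02 ± 0.10 apart, and Oasl2 and Ifit3 0.24 ± 0.26.

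The stretches of promoter that carry the ISRE core are shown because this element is the shared feature of interferon-induced genes. The core was searched as TTTC, any 2 bases and TTTC again on both strands, where the other strand reads GAAA, any 2 bases and GAAA, in RefSeq windows of 300 bases (250 before to 50 after the start site, GRCm38.p6). The table held windows for 7 of the 10 genes (8 windows, as Ifit2 had 2), and 5 of the 7 genes had a match. By window, 5 of the 8 held a match, against 3.44% of all 32851 windows. A high share is built into a group chosen as interferon-induced genes, so it is not a result of these data. Matches are in capitals and the sequence runs 5′ to 3′ on the strand of the gene, with overlapping matches merged.
Rsad2, chr12:26456543-26456592, minus strand: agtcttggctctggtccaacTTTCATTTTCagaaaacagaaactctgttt
Isg15, chr4:156200855-156200916, minus strand: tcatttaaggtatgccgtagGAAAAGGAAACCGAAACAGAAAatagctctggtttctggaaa
Oas1a, chr5:120907510-120907565, minus strand: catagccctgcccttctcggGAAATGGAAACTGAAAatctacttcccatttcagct
Ifit3, chr19:34583353-34583436, plus strand: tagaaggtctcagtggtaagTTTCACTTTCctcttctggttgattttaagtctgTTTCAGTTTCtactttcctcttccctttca
Ifit1, chr19:34640765-34640833, plus strand: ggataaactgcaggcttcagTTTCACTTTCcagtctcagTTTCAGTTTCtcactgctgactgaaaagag

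The match of Rsad2 began 120 bases before the start site. Isg15 had 3 overlapping matches that began 78, 72 and 66 bases before it, and Oas1a 2 overlapping matches at 20 and 14 bases. The Ifit3 matches began at 156 and 122 bases and those of Ifit1 at 104 and 85 bases, and the pair of matched decamers was the same in both genes, TTTCACTTTC and then TTTCAGTTTC. The windows of Ifit2 and Oasl2 did not hold these letters, which says nothing about sites elsewhere. Genes with and without a match overlapped in ratio. Among the genes with a match, Rsad2 was called at -1.96 and Ifit1 was at -0.10 and not called, while Ifit2 and Oasl2, without one, were both called. Over all genes with a window, 30.8% of the 312 with a match were called lower in liver, and 27.4% of the 7515 without a match, a description for which no test was run.

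Rsad2, which encodes viperin, had the largest mean difference of the group. Its probe read -2.01, -1.79 and -2.09 on arrays 1, 2 and 3. All arrays placed it near the same ratio, and the mean of -1.96 ± 0.16 is a 3.90-fold lower level in liver (limma, adjusted p = 4.33e-05). Only 1.56% of the genes tested had a lower mean. The 3 genes whose ratios over the 3 arrays were most like those of Rsad2, by root-mean-square difference, were Dennd2d (difference 0.05), Srsf3 (0.09) and Prkcb (0.10). In all, 51 genes lay within 0.25 of it by this measure. Cmpk2, a mitochondrial nucleotide kinase and the neighbour of Rsad2 on its chromosome, read -2.48 on array 1, -0.56 on array 2 and -0.53 on array 3. Array 1 stood apart for Cmpk2, and its mean of -1.19 ± 1.12 did not pass the test (adjusted p = 0.0530).

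Isg15, the ubiquitin-like modifier, averaged -0.68 ± 0.14, a 1.60-fold lower level in liver (limma, adjusted p = 0.00173). That mean came from probes that did not give the same result. Probe 164 read -1.80, -1.32 and -1.44, a 2.87-fold lower level in liver, while probe 12272 read 0.18, 0.26 and 0.03 and did not pass the test over single probes. The ranges of the 2 probes did not overlap. Without variance moderation, the calls of Isg15 and Oasl2 were lost (adjusted p = 0.0510 and 0.0770).

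Of the 4 enzymes that attach ISG15 to proteins, 3 were called lower in liver, against 27.4% of all genes. Without variance moderation 1 of the 4 was called lower, against 12.1% of all genes in that fit. None was called higher by limma, or higher at an unadjusted p under 0.05, against 25.3% of all genes called higher. The activating enzyme Uba7 was at -1.22 ± 0.10, the ligase Herc6 at -0.61 ± 0.30 and the ligase Trim25 at -0.29 ± 0.09. The conjugating enzyme Ube2l6 read -0.64, -0.56 and 0.05 and did not pass (adjusted p = 0.0845). Usp18, the protease that removes ISG15, read -0.29, -0.21 and -0.21. Its arrays lay close together, and the mean of -0.24 ± 0.04 was a 1.18-fold lower level in liver (limma, adjusted p = 0.0434). The call of Usp18 was lost without any 1 of the arrays, with adjusted p-values of 0.178, 0.122 and 0.0955 without arrays 1, 2 and 3, and those over all alternatives ran between 0.0339 and 0.178. In the test over single probes it did not pass either (adjusted p = 0.0527).

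Of the 3 Ifit genes, all on chromosome 19, Ifit2 was called lower in liver and Ifit3 and Ifit1 did not pass. Differences between the Ifit genes were not tested. Ifit2 averaged -0.57 ± 0.06, a 1.49-fold difference (limma, adjusted p = 0.00187). Its array means were -0.60, -0.50 and -0.62, all below 0. The probes behind them differed. Probe 14057 read -0.84, -1.28 and -0.90, and probe 6062 read -0.36, 0.28 and -0.34. Array 2 was the lowest array for probe 14057 and the highest for probe 6062. The SDs of these probes were 0.24 and 0.36, so the small SD of the gene mean partly reflects opposite moves that cancelled in averaging. The p-value of the gene rests in part on that smaller spread.

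Ifit3 averaged -0.25 ± 0.12 and did not pass (adjusted p = 0.0552, and between 0.00918 and 0.218 over the alternatives). Probe 17199 of Ifit3 read -0.69, -0.31 and -0.55 and passed the test over single probes (adjusted p = 0.00927), while probe 2881 read 0.01, 0.09 and -0.05. Ifit1 read -0.29, 0.15 and -0.15 as the mean of its 2 probes. These values straddled 0, and the 95% interval of the mean ran between -0.37 and 0.18. This interval covers array-to-array spread only, and whether the probes were above background cannot be judged from ratios. Both Ifit1 probes missed the test.

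Neither Mx gene passed. Mx1, the nuclear GTPase that blocks influenza virus in mice, averaged -0.23 ± 0.25 (limma, adjusted p = 0.145). Its probe 6573 read -1.08 on array 1 but -0.29 and -0.26 on arrays 2 and 3, and probe 15328 read 0.05, 0.19 and 0.02. Without array 1 the gene's mean was -0.09. Mx2, a cytoplasmic relative, read 0.41, 0.14 and -0.22, with a mean of 0.11 ± 0.32 (limma, adjusted p = 0.525) that was -0.04 without array 1. In the RefSeq annotation of the C57BL/6J genome both are listed as transcribed pseudogenes, and many laboratory strains are known to carry defective Mx alleles. The strain behind these RNAs is not given in the labels.

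Both oligoadenylate synthetase genes were lower in liver. Oas1a read -0.58, -0.64 and -0.56, the smallest spread of the group, with a mean of -0.59 ± 0.04 and a 1.51-fold lower level (limma, adjusted p = 0.00151). Oasl2 averaged -0.48 ± 0.15, a 1.40-fold lower level (limma, adjusted p = 0.00678). Its probe 8249 read -0.97, -1.01 and -0.71, all clear of 0. Probe 12302, which is annotated with the same sequence record, read 0.11, -0.28 and -0.03 and did not pass. Oas1g, a relative that adjoins Oas1a in the genome, read 0.17, 0.18 and 0.48, on the liver side on each array, and did not pass (adjusted p = 0.0560). Near-identical Oas, Ifit and Mx relatives may share signal between probes, which was not resolved here. Abce1, an inhibitor of RNase L with a general role in ribosome recycling, averaged -1.03 ± 0.40 from probes at -1.93 and -0.13 (adjusted p = 0.00347).

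**Figure D2:**
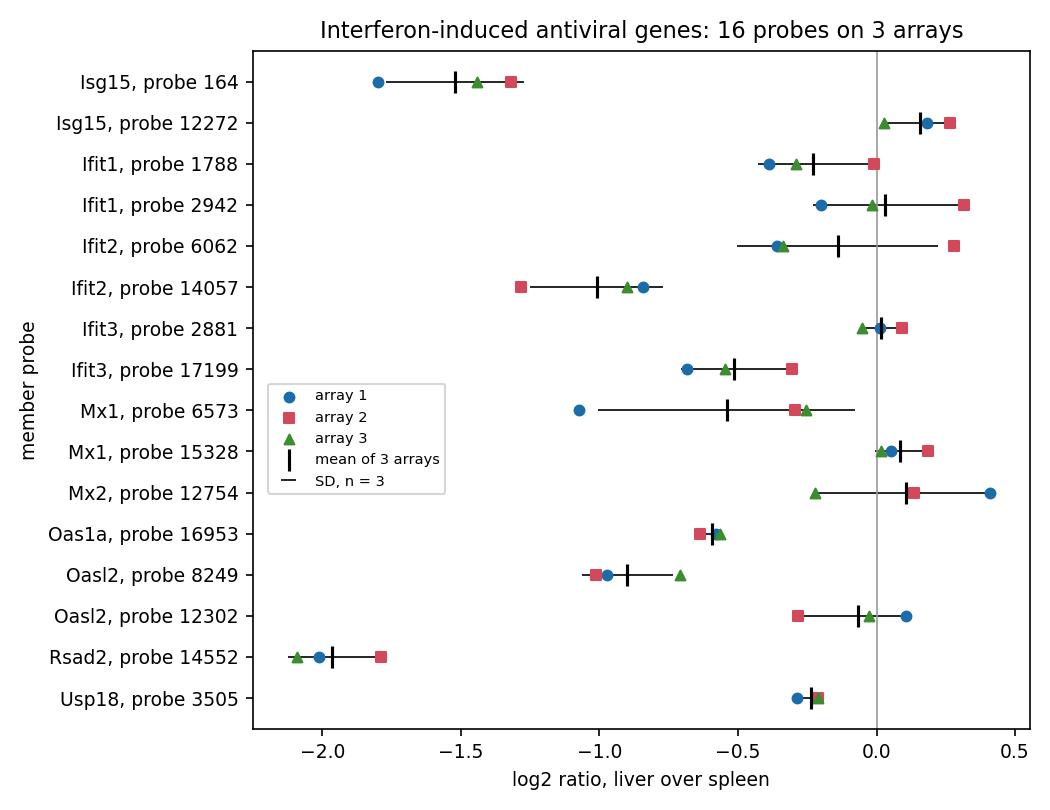
Log2 ratio of liver over spleen for the 16 probes of the 10 genes on arrays 1, 2 and 3 (coloured points), with the mean as a black tick and the SD (n = 3) as a line. The Rsad2 probe, Isg15 probe 164, Ifit2 probe 14057 and Oasl2 probe 8249 lie furthest left, while the second probes of Isg15, Ifit2 and Oasl2 lie near 0.

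Probes of the same gene often differed in this group. In the test over 12259 single probes, 6 of the 16 probes were called lower in liver, not far from the 26.6% of all probes. By limma 0 were called higher, with 0 also at an unadjusted p under 0.05, against 24.1% of all probes. The 6 were Rsad2 probe 14552, Isg15 probe 164, Ifit2 probe 14057, Oasl2 probe 8249, Oas1a probe 16953 and Ifit3 probe 17199. Of the 10 genes, 6 had 2 probes (Isg15, Ifit1, Ifit2, Ifit3, Mx1 and Oasl2). The difference between the 2 probes passed limma for 5 of these 6, against 35.8% of the 2052 genes with exactly 2 measured probes, in a test chosen after the values were seen. It was -1.68 ± 0.27 for Isg15 (lower minus higher probe, adjusted p = 0.000703), -0.87 ± 0.60 for Ifit2 (0.0351), -0.83 ± 0.22 for Oasl2 (0.00619), -0.63 ± 0.45 for Mx1 (0.0487) and -0.53 ± 0.15 for Ifit3 (0.0210). For Ifit1 it was -0.26 ± 0.07 (0.126).

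In each of these 5 genes 1 probe lay at least 0.5 below 0 and the other within 0.25 of 0. Among all 999 genes with 2 probes of which 1 lay at least 0.5 from 0, the other probe was within 0.25 of 0 in 36.8%. A mean over such a pair is smaller than the ratio of its more distant probe. With the probe furthest from 0 taken for each gene, 7 of the 10 genes were called lower in liver, Ifit3 among them. That choice favours large ratios in every gene, and under it 29.4% of all genes were called lower. The largest means on that basis were -1.96 for Rsad2, -1.52 for Isg15, -1.01 for Ifit2 and -0.90 for Oasl2.

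**Figure D3:**
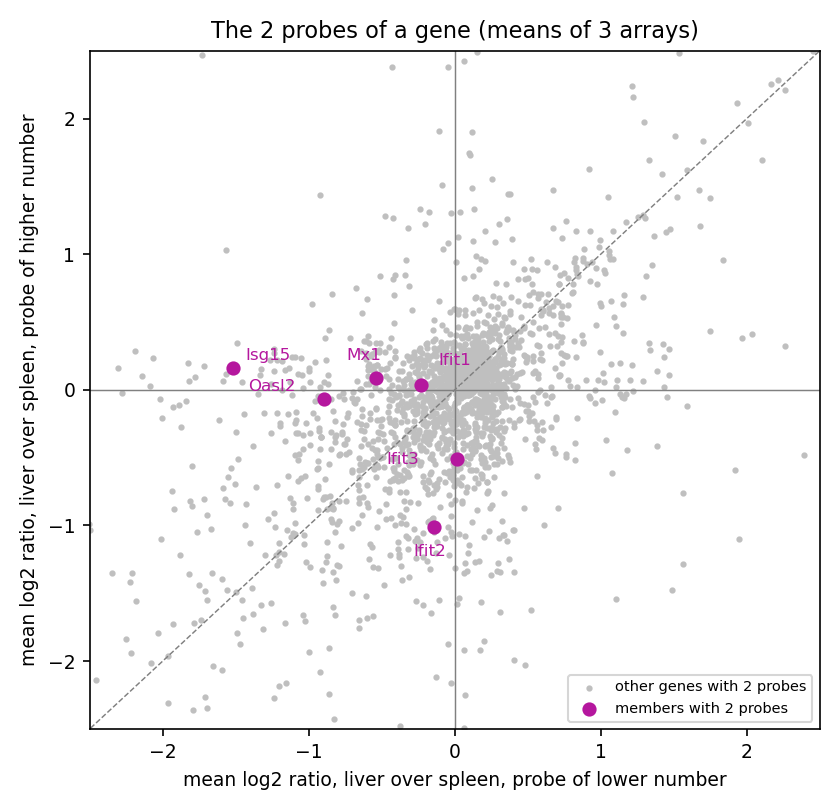
Mean log2 ratio of liver over spleen for the 2 probes of each gene with exactly 2 measured probes, the probe of lower number on the x axis and that of higher number on the y axis (101 genes with a probe beyond 2.5 lie outside the plot). Isg15, Oasl2, Mx1, Ifit2 and Ifit3 lie close to one axis and away from the dashed line of equal ratios, and Ifit1 lies near the origin.

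Other genes induced by type I interferon, from a list of 45 of which 29 were measured, had calls in both directions. Of the 29, 16 were called lower in liver, against 27.4% of all genes, and 4 higher, against 25.3%. Their median was -0.38. Without variance moderation 5 of the 29 were called lower, against 12.1% of all genes in that fit. The nuclear body protein Sp100 had the largest difference at -2.68 ± 0.26, a 6.40-fold lower level in liver. Samhd1, which hydrolyses nucleotides that retroviruses need, was at -2.08 ± 0.10, and its 2 probes read between -2.40 and -1.81 over all arrays. The RNA helicase Mov10 averaged -1.43 ± 0.34, Tor3a -1.42 ± 0.51 and the DNA-binding protein Ifi204 -1.40 ± 0.17. The kinase PKR (Eif2ak2), which halts translation on double-stranded RNA, averaged -0.38 ± 0.16 from probes at -0.39, -0.74 and 0.01.

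The 4 genes of that list called higher in liver were Ifitm3 at 1.40 ± 0.04, Ifi27 at 1.04 ± 0.08, Gch1 at 1.04 ± 0.02 and Ifitm2 at 0.86 ± 0.30. Apart from Ifitm3, these were named after their values were seen. IFITM proteins block the fusion of viruses with cell membranes. Gch1 starts the synthesis of tetrahydrobiopterin, the cofactor of phenylalanine hydroxylase in liver. The GTPases induced mainly by interferon gamma had 4 of 9 called lower in liver and 3 higher, not far from the 27.4% and 25.3% of all genes. Ifi47 averaged -1.32 ± 0.16 and Gbp3 -0.85 ± 0.15, against 1.53 ± 0.06 for Iigp1, which was on the liver side on every array. Without array 1, the count of these GTPases called higher was 1.

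**Figure D4:**
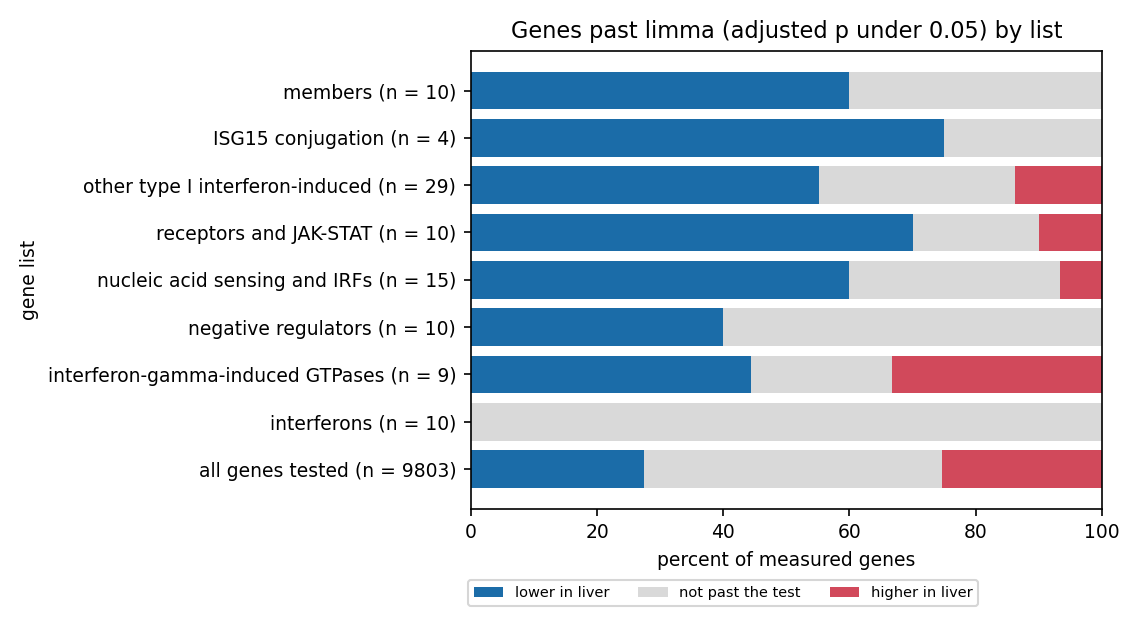
Share of the measured genes of each list called lower in liver (blue), called higher in liver (red) or not past limma's test (grey), with all 9803 genes in the bottom bar. The antiviral genes have 6 of 10 called lower and none higher, and the interferons themselves have none called in either direction.

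Genes that carry the interferon signal were examined next. Of the 10 measured genes of the receptors and the JAK-STAT path, 7 were called lower in liver and 1 higher, against 27.4% and 25.3% of all genes, with a median of -0.70. Without variance moderation 3 were called lower, against 12.1% of all genes in that fit. The kinases Jak2, Jak1 and Tyk2 averaged -1.96 ± 0.05, -1.36 ± 0.04 and -0.62 ± 0.19. The Tyk2 mean came from probes at -1.08 and -0.16. Partners in the ISRE-binding complex were lower too, Irf9 at -0.78 ± 0.20 and Stat2 at -0.32 ± 0.07. The receptor for type I interferon did not share this direction. Ifnar1 read 0.24, 0.14 and 0.07 and did not pass (adjusted p = 0.164), and Ifnar2 was called higher at 0.26 ± 0.08 (adjusted p = 0.0383). The Ifnar2 probes lay on opposite sides of 0, at 0.85 and -0.34, and it was not called when an array was left out, whichever it was, or when the arrays were centred on their medians. The receptor chains Ifngr1 for interferon gamma and Il10rb for interferon lambda were lower in liver, at -1.23 ± 0.23 and -0.82 ± 0.33, while Ifngr2 was at -0.03 ± 0.06 and did not pass.

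Sensors and regulatory factors gave 9 of 15 called lower in liver and 1 higher, against 27.4% and 25.3% of all genes, with a median of -0.61. Without variance moderation 5 were called lower, against 12.1% of all genes in that fit. Irf8, a factor of myeloid and B cells, averaged -2.30 ± 0.32, the kinase Tbk1 -1.08 ± 0.10 and the RNA sensor Tlr3 -0.94 ± 0.23. Sting1, the adaptor of DNA sensing, was at -0.75 ± 0.05 and the RNA sensor Dhx58 at -0.74 ± 0.24. Irf3, which is present in most cells before infection, was at 0.01 ± 0.03, and its 95% interval ran between -0.18 and 0.19. Dhx58 and Ifih1 are also counted in the list of other interferon-induced genes, as is the ligase Trim25. Traf6 was the gene called higher, at 0.26 ± 0.06, and it was not called without any 1 of the arrays.

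**Figure D5:**
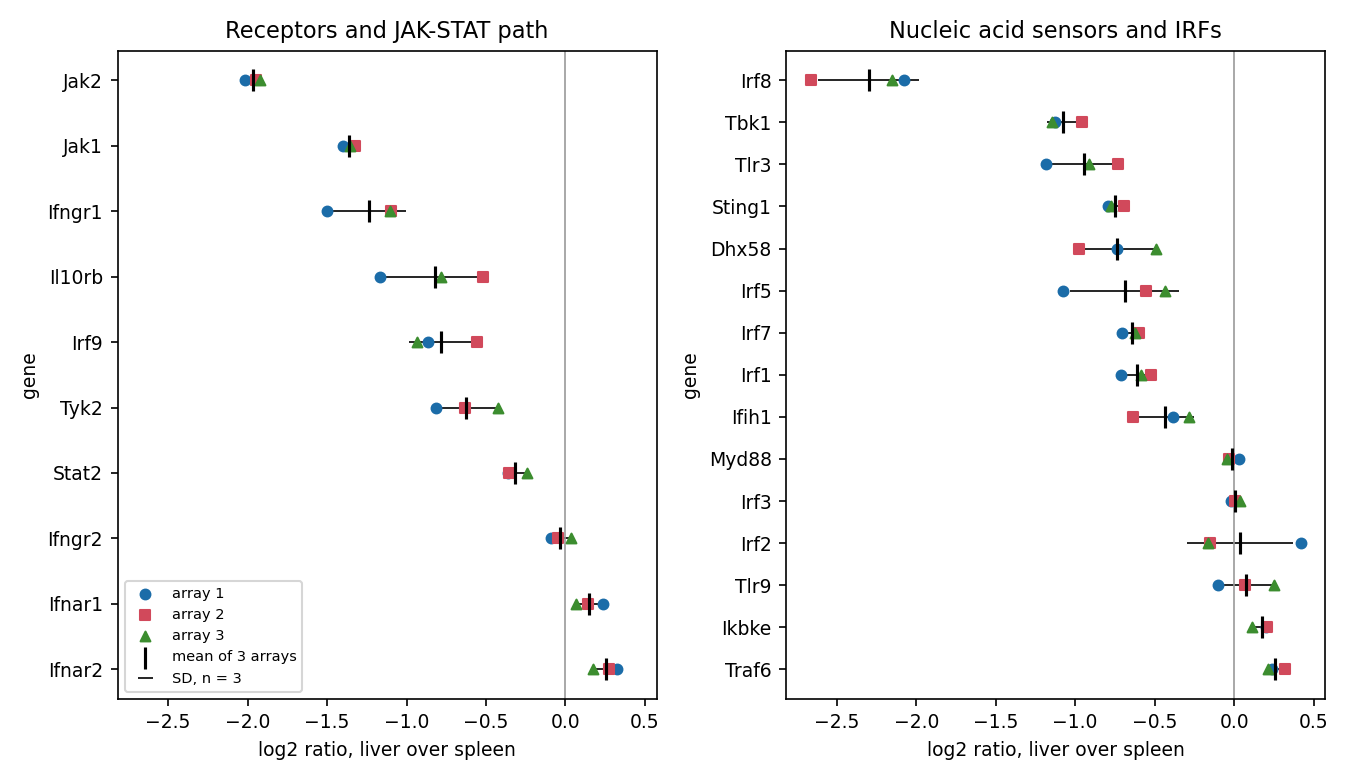
Log2 ratio of liver over spleen for 10 genes of the interferon receptors and JAK-STAT path (left) and 15 genes of nucleic acid sensing and IRFs (right), with arrays 1, 2 and 3 as coloured points, the mean as a black tick and the SD (n = 3) as a line. Jak2, Jak1 and Irf8 lie far to the left, and Ifnar1, Ifnar2, Ikbke and Traf6 lie right of 0 on all arrays.

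The interferons themselves showed no difference that passed the test. Of 10 measured ligand genes limma called 0 in either direction, against 52.8% of all genes. At an unadjusted p under 0.05, 1 was lower in liver. The means ran between -0.23 (Ifng) and 0.20 (Ifnb1), with a median of 0.03. Whether these probes were above background cannot be judged from ratios, since no intensities were used here. Of 10 negative regulators 4 were called lower in liver, not far from the 27.4% of all genes, with none called higher and none higher at an unadjusted p under 0.05. The phosphatase Ptpn2 averaged -0.91 ± 0.17, the receptor Sirpa -0.67 ± 0.23, Socs3 -0.47 ± 0.10 and Ptpn11 -0.28 ± 0.04. The Sirpa mean came from probes at -0.13 and -1.20. Socs1 averaged -0.47 ± 0.41 from probes at -1.24 and 0.30 and did not pass.

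Most markers of immune cells were lower in liver. Of the markers measured, 6 of 7 for B cells, 5 of 7 for T cells, 8 of 9 for macrophages and 5 of 5 for plasmacytoid dendritic cells were called lower in liver, against 27.4% of all genes, and none of these lists had a gene called higher. Their medians were -1.38, -1.90, -0.64 and -0.72. The B-cell list had also served to read the direction of the ratio, so its side of 0 is not a separate result. The B-cell markers ran between -4.08 (Spib) and 0.05 (Ms4a1), the T-cell markers between -2.82 (Il7r) and 0.13 (Cd3e) and the macrophage markers between -2.66 (Lyz2) and -0.09 (Fcgr1). The plasmacytoid markers ran between -2.30 (Irf8) and -0.53 (Klk1). Of the 8 listed for these cells, Siglech, Bst2 and Runx2 had no measured value. Irf8 is also among the sensing genes above, as a factor of myeloid and B cells, so it is not particular to plasmacytoid dendritic cells. The T-cell markers Cd3e and Cd4 were at 0.13 and 0.07 and did not pass. The value of Ms4a1 came from probe 7499, the only one of its 3 probes measured on all arrays, and it did not pass either. Its other probes were far below 0 where they were measured, probe 4078 at -1.46 and -3.87 on arrays 1 and 2 and probe 4225 at -4.51 on array 2. Of 8 neutrophil markers 5 were called lower and 1, Ly6g, higher, with a median of -1.10. Ly6g was at 2.61 ± 0.26, and S100a9 was the lowest of that list. The Kupffer cell markers Clec4f and Cd5l, of macrophages that reside in liver, were both called higher, at 1.62 ± 0.17 and 0.90 ± 0.02. The Clec4f mean came from probes at 3.18 and 0.05, and those of Cd5l were at 0.82 and 0.97. The part of cell type content in the ratios of the antiviral genes was not tested.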

How the data were processed

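The deposited table holds 1 log2 ratio per probe and array. The authors' background correction, dye normalization and the direction of the ratio are not stated in the sources consulted. The base was read from the values, as each array tops out at 6.64, which is log2 of 100. An exact 0 was taken as no measurement. Probes were named from the platform annotation, with 13738 probes of 1 symbol, 52 of several and 2491 of none. Of those with 1 symbol, 13694 were found by Entrez number in RefSeq and no symbol changed. Only probes of 1 symbol were used.

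Ratios of a gene's probes measured on all 3 arrays were averaged, which left 9803 genes. The test of each mean against 0 used limma 3.58.1 under R 4.3.3 (intercept only, moderated variances, two-sided, Benjamini-Hochberg adjustment). The same fit was run on 12259 single probes. The fit was tested on simulated data. Arrays correlated across genes at r between 0.942 and 0.954. The number of arrays limits the precision. The alternatives were array centring and scaling, exact 0 kept, probes on at least 2 arrays, the largest probe, no variance moderation and each array left out.

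The members and lists were chosen with earlier results of these data known. All members were named. Any measured gene of the lists of ISG15 conjugation, OAS effectors, family relatives and receptors, and any marker, could be named. From each other list the rule took the 5 called genes with the largest means, the largest in the opposite direction, and genes not past the test as values. Genes named outside this rule include Ifi204, which came just behind Ifitm3 in size, and Eif2ak2, chosen after its values were seen. The others are said to be so where they appear. Motif matches used the RefSeq promoter table of GRCm38.p6.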

Additional observations from a re-analysis of the deposited data

How the results depend on the processing

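Over the 9 alternatives, between 4 and 7 of the 10 antiviral genes were called lower in liver and 0 higher. Of all genes, between 12.1% and 29.4% were called lower under these alternatives. Over the 5 alternatives for single probes, between 6 and 8 of the 16 probes were lower and 0 higher. In the main fit of single probes, 26.6% of all probes were called lower and 24.1% higher, and in that of genes 25.3% were called higher. With 1 array left out, 5 of the 10 genes were called each time (Rsad2, Isg15, Oas1a, Ifit2 and Oasl2). Of all genes, 22.25%, 21.46% and 25.68% were called lower without arrays 1, 2 and 3. Rsad2, Oas1a and Ifit2 passed under every alternative. Keeping exact 0, or probes on at least 2 arrays, could not change their means, as all their probes had a value on every array. Taking the largest probe could not change Rsad2 and Oas1a, which have 1 probe each. For Ifit2, probe 14057 passed under 5 of the 5 alternatives for single probes and probe 6062 under 0. Isg15 and Oasl2 missed without variance moderation (adjusted p = 0.0510 and 0.0770, with 0.000248 and 0.000867 as the lowest over the alternatives). The sign turned for Mx2 without array 1 (-0.0438, up to 0.273 without array 3, both as gene and as probe 12754), Ifit1 probe 2942 without array 2 (-0.109, up to 0.149 without array 1), Ifit3 probe 2881 with arrays centred (-0.0056) and without array 2 (-0.0196, up to 0.0517 without array 3) and Oasl2 probe 12302 without array 2 (0.0386, down to -0.155 without array 1), none of them past the test. Without variance moderation the counts called lower in liver were 5 for other type I interferon-induced genes, 1 for ISG15 conjugation, 2 for interferon-gamma-induced GTPases, 3 for receptors and JAK-STAT, 5 for sensing and IRFs, 2 for negative regulators and 0 for the OAS effector Abce1. That fit called 12.1% of all genes lower in liver, against 27.4% with moderation. Counts called higher in liver then were 1 for GTPases, 0 for receptors, 0 for sensing and 1 for negative regulators. With arrays centred, or centred and scaled, 1 interferon gene was called lower and 0 receptor genes higher, and with scaling 0 sensing genes higher. With the largest probe of each gene, 1 interferon was called lower and 2 sensing genes higher. Leaving out 1 array at a time, the GTPases called higher ran between 1 and 3, and the receptor and sensing genes called higher were 0. The cause of these changes was not tested. No paired analysis was possible because each ratio already pairs the RNAs of 1 array, and with 1 group of arrays no replicate number is shared between groups.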

Other observations

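In 5 of the antiviral genes (Isg15, Ifit1, Ifit2, Ifit3 and Mx1) 1 probe is annotated with a GenBank record and the other with a RefSeq record, and the GenBank probe had the lower ratio in 5 of 5. Over all 1340 genes with such a pair, the GenBank probe was the lower in 51.0%. This was noticed in the values and was not tested. Over the 2052 genes with 2 probes, the median absolute difference between probes was 0.316 on the log2 scale, and Pearson's r between them was 0.565 across genes, which are not independent replicates.

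Array 1 read lower than the others for Mx1 probe 6573 and Cmpk2, and higher for Irf2, which read 0.42, -0.15 and -0.16. Trim30a, an interferon-induced regulator of Toll-like receptor signalling, also read higher on that array, at -0.09 against -1.53 and -1.92 on arrays 2 and 3. Trim30a and Irf2 were chosen after their values were seen.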
